A study of Mus musculus with 6 samples.

Results

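The 10 genes described here are the mouse Lin28 paralogs, Lin28a and Lin28b, and 8 factors that process, export, load or degrade microRNA precursors: Drosha, Dgcr8, Xpo5, Dicer1, Tarbp2, Ago1, Ago2 and Dis3l2. They were selected by gene symbol, and all 10 were found among the 54752 genes of an RNA immunoprecipitation sequencing (RIP-seq) experiment in mouse B cell precursors. Values are FPKM, fragment counts scaled by transcript length and by library size, so levels of different genes are compared per length.

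Bone marrow was taken from 2 adult tet-LIN28B mice (Col1a tetO-LIN28B, Rosa26 rtTA*m2) and from 1 littermate control, which carries the Rosa26 rtTA*m2 allele without the tetO-LIN28B allele. The transgene is a FLAG-tagged human LIN28B cDNA at the Col1a locus that doxycycline switches on through rtTA in any cell that makes it. All 3 cultures, the control included, were grown for 5 days in IL-7 at 20 ng/mL with doxycycline. The labels give doxycycline as 0.1 mg/mL and the study's methods as 0.1 µg/mL, a far lower dose. Anti-FLAG immunoprecipitates (IP) and the input set aside before them gave 6 libraries, so the control IP measures RNA carried along without the tagged protein. Because whole marrow was cultured, the cells are a mixture. All 12 B cell progenitor markers examined reached 1 FPKM in an input, with summed levels of 7178 to 8418 FPKM in tet-LIN28B inputs and 8402 FPKM in the control input. The 8 myeloid markers also all did, at 4652 to 7437 FPKM in tet-LIN28B inputs and 6400 FPKM in the control input. S100a8, S100a9 and Lyz2 carried that sum, and the other 5 stayed between 1.77 and 11.16 FPKM in the inputs, so the sums do not give shares of cells, and the study describes such cultures as mostly B cells. Of other lineages, 6 of 7 T and NK cell markers and 4 of 5 erythroid markers also reached 1 FPKM in an input. All 4 mast cell and basophil markers and all 3 plasmacytoid dendritic cell markers reached it too. The T and NK cell sum was 96.1 and 32.1 FPKM in tet-LIN28B inputs, against 34.4 FPKM in the control input. In contrast, none of 5 stromal markers reached 1 FPKM and Pdgfrb was at 0 in every input.

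A microRNA begins as a hairpin in a longer transcript. In the nucleus the Microprocessor, made of the nuclease Drosha and its RNA-binding partner Dgcr8, cuts the hairpin out, and Xpo5 carries it to the cytoplasm. There Dicer1 with Tarbp2 removes the loop, and one strand is loaded into an Argonaute protein. LIN28 proteins bind let-7 precursors at the loop and keep them from maturing. They can lead to addition of a uridine tail, which the exonuclease Dis3l2 recognizes. Whether LIN28B acts by this tail in these cells was not tested. Lin28b is active in fetal blood cell progenitors and largely silent in adult ones. LIN28 proteins also bind messenger RNAs, often at GGAG-like sequences.

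The let-7 family is the known precursor target of LIN28, and 4 of its 12 mouse hairpins are printed here to show the GGAG sequence between the arms (RefSeq, GRCm38.p6). Capitals mark GGAG in the loop, and a hairpin printed without capitals has none there.

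Mirlet7g, chr9:106178840-106178927, plus strand: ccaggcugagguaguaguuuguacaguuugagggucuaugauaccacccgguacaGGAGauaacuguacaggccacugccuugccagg
Mirlet7a-1, chr13:48538179-48538272, minus strand: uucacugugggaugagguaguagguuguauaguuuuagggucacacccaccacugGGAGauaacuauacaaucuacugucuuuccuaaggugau
Mirlet7b, chr15:85707319-85707403, plus strand: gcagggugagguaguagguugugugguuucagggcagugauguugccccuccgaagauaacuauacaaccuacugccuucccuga
Mir98, chrX:151913214-151913321, plus strand: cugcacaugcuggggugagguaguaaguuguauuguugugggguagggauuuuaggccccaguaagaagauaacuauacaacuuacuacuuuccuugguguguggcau

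The letters GGAG, searched on the hairpin strand only, stood between the arms of 9 of the 12 hairpins and were not found there in Mirlet7b, Mirlet7c-2 and Mir98. Among 50 other mouse hairpins with loops of the same length range, 23 to 36 nt, 7 (14%) held them. The mature 5′ strands of all 12 share 1 seed, bases 2 to 8, shown in capitals for 2 of them.

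Mirlet7g mature: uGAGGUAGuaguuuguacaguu
Mir98 mature: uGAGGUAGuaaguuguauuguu

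The rows of all 12 let-7 and Mir98 hairpins were at 0 FPKM in all 6 libraries, in IP as in input. These are long-RNA libraries, and let-7 precursors were not analysed here beyond those zeros.

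The mouse Lin28b row (chr10:45376620-45486395, minus strand, GRCm38, as are all gene positions here) was low in every library. It held 0.24 and 0.44 FPKM in tet-LIN28B IPs, against 0.62 and 1.03 FPKM in tet-LIN28B inputs, and 0.00 FPKM in the control IP, against 0.01 FPKM in the control input. All 4 tet-LIN28B libraries were above both control libraries, and within each tet-LIN28B mouse the IP was below the input. The deposited values were quantified on the mouse genome and the transgene is a human cDNA, so this row is not the level of the induced protein's mRNA. Whether reads of the human cDNA were counted in this row, or in that of Lin28a, was not tested. The row therefore cannot be read as endogenous Lin28b alone. The IP/input ratio was 0.407 ± 0.0283 (SD, n = 2 mice). Fragments, estimated from the steps between low FPKM values, were about 18.2 and 40.1 in tet-LIN28B IPs, 60.9 and 95.7 in their inputs and 1.1 in the control input. In the control IP none were seen, which at this depth allows up to 0.0410 FPKM for this transcript (3 fragments, counting error only).

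Lin28a (chr4:134003330-134018841, minus strand), the paralog of embryonic and pluripotent cells, was lower still. It was at 0.17 and 0.28 FPKM in tet-LIN28B IPs, against 0.13 and 0.00 FPKM in their inputs, and at 0.00 FPKM in the control IP, against 0.01 FPKM in the control input. Both tet-LIN28B IPs lay above the other 4 libraries, but they rest on about 8.18 and 16.2 fragments. No fold is given for Lin28a, since 3 of the other 4 libraries are under the 3-fragment floor. Neither paralog reached the mean input of 1 FPKM required for testing. Without that filter, limma on 26505 genes called no gene in any comparison. It gave Lin28b a log2 IP/input of -0.44 (SE 0.05, adjusted p = 0.148) and an input difference, tet-LIN28B minus control, of 0.84 (SE 0.22, adjusted p = 0.577). At such levels the pseudocount of 1 shrinks these log2 values. The control libraries of Lin28b are also under the 3-fragment floor.

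The tested genes whose pattern over the 6 libraries was most like Lin28b were Mpzl2 (Pearson r = 0.976), Iigp1 (0.975) and Cdh17 (0.975), on log2(FPKM + 1). With 6 libraries from 3 mice, 34 genes had an r above 0.9. Mpzl2, an adhesion protein, held 15.2 and 18.1 FPKM in tet-LIN28B IPs, 20.8 and 21.8 FPKM in their inputs, 12.7 FPKM in the control IP and 13.6 FPKM in the control input. As for Lin28b, the tet-LIN28B inputs were highest and the control libraries lowest.

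**Figure D1:**
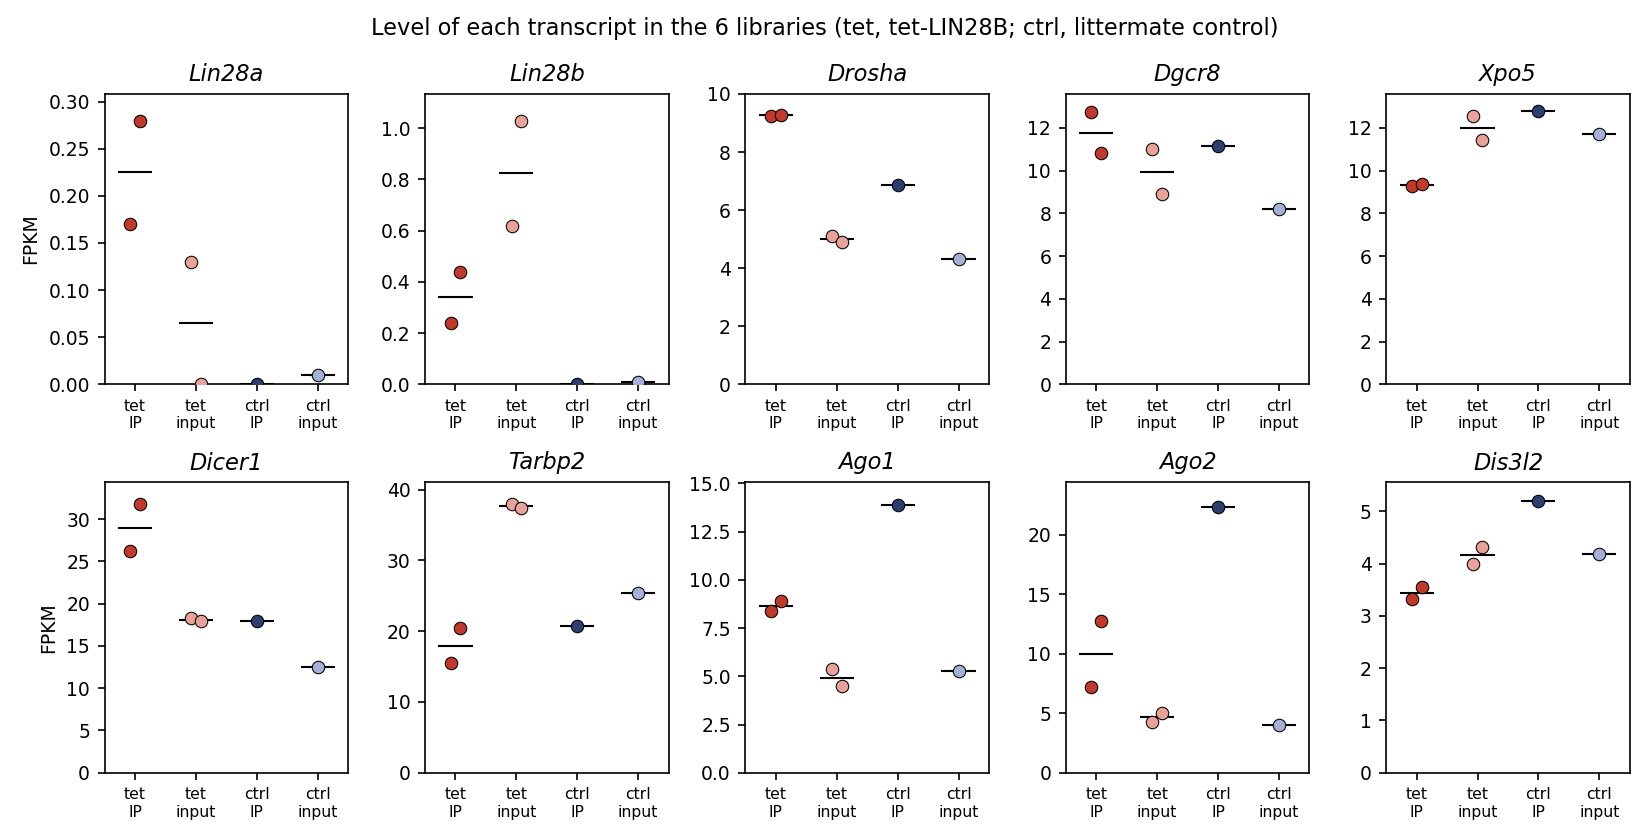
FPKM of each of the 10 transcripts in tet-LIN28B IPs, the tet-LIN28B inputs, the control IP and the control input, 1 point per library with a line at the group mean; each panel has its own axis starting at 0. Ago2 stands at 22.37 FPKM in the control IP, above every other library, and Tarbp2 at 38.00 and 37.41 FPKM in tet-LIN28B inputs.

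The 8 processing factors were all expressed, and their mean input levels ranged between 4.16 and 33.6 FPKM. Mean levels over the 3 inputs were highest for Tarbp2 at 33.6 FPKM, Dicer1 at 16.3 FPKM, Xpo5 at 11.9 FPKM and Dgcr8 at 9.38 FPKM. The inputs of these 4 did not overlap. Ago1 at 5.05, Drosha at 4.77, Ago2 at 4.45 and Dis3l2 at 4.16 FPKM followed, and each of these overlapped its neighbour. Among the 12576 genes tested, Tarbp2 was at the 75.9 percentile of input level and Dis3l2 at the 28.1 percentile.

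Input levels were compared first, to ask whether the machinery differed between induced and control cells before any immunoprecipitation. limma called none of the 8 factors, and 0% of the 12576 genes in either direction. At an unadjusted p under 0.05 there were 2 factors higher and none lower, against 279 genes higher and 401 lower in all. Those 2 were Tarbp2 and Dicer1. Tarbp2 was at 38.00 and 37.41 FPKM in tet-LIN28B inputs, against 25.34 FPKM in the control input (log2 difference 0.56, SE 0.12, adjusted p = 0.835). Dicer1 was at 18.28 and 17.96 FPKM in tet-LIN28B inputs, against 12.56 FPKM in the control input (0.50, SE 0.14, adjusted p = 0.835). For both genes the tet-LIN28B inputs lay above the control, but with 1 control mouse its spread is assumed to be that of the tet-LIN28B mice. Over the 8 factors the differences ran between -0.09 and 0.56 with a median of 0.18, against a median of -0.04 over all genes. In bulk cultures, fewer cells of a type and less RNA per cell cannot be told apart.

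The second question was which of these mRNAs were recovered with FLAG-LIN28B. In tet-LIN28B mice, 5 of the 8 factors passed the test of IP against input. Ago2, Drosha, Ago1 and Dicer1 were higher in the IP, where 13.9% of all genes were, and Tarbp2 was lower, where 31% were. Xpo5, Dgcr8 and Dis3l2 did not pass. The control IP, which holds no tagged protein, showed a ratio in the same direction for each of the 5. None of the 8 differed between tet-LIN28B and control mice after adjustment, against 0.382% of genes higher and 2.53% lower in tet-LIN28B mice. Across all genes the 2 tet-LIN28B mice had a median log2 IP/input of -0.38 and -0.23, and the control had 0.04. The 8 myeloid markers summed to 2527 and 1670 FPKM in tet-LIN28B IPs, against 7437 and 4652 FPKM in their inputs, and to 2777 FPKM in the control IP, against 6400 FPKM in the control input. They were thus lower in IP than in input in all 3 mice, and their part in the ratios was not tested. When each mouse was centred on its median gene, the same 5 calls held, the ratio of Dis3l2 against input turned from -0.22 to 0.09 and the difference of Dgcr8 from the control turned from -0.18 to 0.17.

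Drosha (chr15:12824815-12935291, plus strand), the nuclease of the Microprocessor, was recovered to a like degree in both tet-LIN28B mice. Its level was 9.24 and 9.29 FPKM in tet-LIN28B IPs, against 5.11 and 4.89 FPKM in their inputs, and 6.85 FPKM in the control IP, against 4.30 FPKM in the control input. Every IP was above every input. The mean log2 ratio of the tet-LIN28B mice was 0.77 (SE 0.19, adjusted p = 0.0308), and the control ratio was 0.57. The difference between the genotypes was 0.21 (SE 0.33, adjusted p = 0.701).

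Dgcr8 (chr16:18253948-18289246, minus strand), which anchors the hairpin in the Microprocessor, stayed near its input level. It held 12.74 and 10.81 FPKM in tet-LIN28B IPs, against 11 and 8.92 FPKM in their inputs, and 11.15 FPKM in the control IP, against 8.21 FPKM in the control input. IP and input overlapped in tet-LIN28B mice. The log2 ratio was 0.22 (SE 0.18, adjusted p = 0.346) and differed from the control by -0.18 (SE 0.31, adjusted p = 0.730). Dgcr8 exons overlap those of Trmt2a on the opposite strand over 825 nt, and the kit does not mark strand, so reads there cannot be assigned to either gene. Trmt2a was more abundant, at 44.74 and 44.92 FPKM in tet-LIN28B IPs and 37.73 FPKM in the control IP.

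Xpo5 (chr17:46202782-46243598, plus strand), the export receptor of microRNA hairpins, was at 9.29 and 9.39 FPKM in tet-LIN28B IPs, against 12.54 and 11.42 FPKM in their inputs. In the control it was at 12.79 FPKM in the IP, against 11.70 FPKM in the input. Both tet-LIN28B IPs were the lowest of the 6 libraries. The log2 ratio of -0.33 (SE 0.18, adjusted p = 0.195) did not pass, nor did the difference from the control of -0.45 (SE 0.31, adjusted p = 0.389).

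The mRNAs of Dicer1 and of its partner stood on opposite sides. Dicer1 (chr12:104687742-104751952, minus strand), which cuts off the hairpin loop, was at 26.19 and 31.79 FPKM in tet-LIN28B IPs, against 18.28 and 17.96 FPKM in their inputs, and at 17.96 FPKM in the control IP, against 12.56 FPKM in the control input. The IP was above the input in all 3 mice, and the tet-LIN28B IPs were the 2 highest libraries. The log2 ratio was 0.64 (SE 0.18, adjusted p = 0.0444) in tet-LIN28B mice, against 0.48 in the control, a difference of 0.16 (SE 0.31, adjusted p = 0.758). This call sits close to the threshold, and over 9 alternative settings its adjusted p ran between 0.0106 and 0.189, with 5 of them passing.

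Tarbp2 (chr15:102518192-102523676, plus strand), the double-stranded RNA-binding partner of Dicer1, was at 15.48 and 20.41 FPKM in tet-LIN28B IPs, against 38.00 and 37.41 FPKM in their inputs, and at 20.68 FPKM in the control IP, against 25.34 FPKM in the control input. Every IP lay below every input. The log2 ratio was -1.04 (SE 0.19, adjusted p = 0.0145) in tet-LIN28B mice, against -0.28 in the control. The difference of -0.76 (SE 0.33, adjusted p = 0.206) did not pass. Of all 50-base windows of the Tarbp2 transcript, 49.05% also occur in the processed pseudogene Gm18584, so the split of reads between them is uncertain. That row held at most 0.78 FPKM in any library.

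Ago2 (chr15:73095844-73184935, minus strand), the Argonaute that can slice its target RNA, had the highest mean log2 ratio of the 8 tested genes in tet-LIN28B mice, and a higher one still in the control. Its level was 7.23 and 12.74 FPKM in tet-LIN28B IPs, against 4.29 and 5.06 FPKM in their inputs, and 22.37 FPKM in the control IP, against 4.0 FPKM in the control input. The inputs were alike, and the control IP was above both tet-LIN28B IPs. As a plain ratio, IP over input was 1.69 and 2.52 in tet-LIN28B mice, against 5.59 in the control. In the control, Ago2 ranked 62 of 12576 genes by log2 ratio. The log2 ratio in tet-LIN28B mice was 0.91 (SE 0.22, adjusted p = 0.0313), and the difference from the control was -1.32 (SE 0.39, adjusted p = 0.111). At an unadjusted p under 0.05, Ago2 alone of the 8 was lower and none was higher, where 23.3% of all genes were lower and 6.4% higher. Over 8 alternative settings the difference ran between -1.44 and -0.97, with an adjusted p between 0.0875 and 0.259. Ago2 exons overlap those of Chrac1 on the opposite strand over 219 nt. Chrac1 held 16.63 and 33.16 FPKM in tet-LIN28B IPs and 72.07 FPKM in the control IP, with 78.02 and 93.68 FPKM in tet-LIN28B inputs and 97.05 FPKM in the control input. Chrac1 thus also stood higher in the control IP than in tet-LIN28B IPs, and its part in the Ago2 value was not tested.

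Ago1 (chr4:126435012-126468583, minus strand), a second Argonaute, was likewise highest in the control IP. It held 8.39 and 8.91 FPKM in tet-LIN28B IPs, against 5.39 and 4.48 FPKM in their inputs, and 13.88 FPKM in the control IP, against 5.29 FPKM in the control input. Every IP was above every input, and the inputs of the genotypes overlapped. The log2 ratio was 0.71 (SE 0.20, adjusted p = 0.0443) in tet-LIN28B mice, against 1.24 in the control, where Ago1 ranked 312 of 12576. The call was lost with a pseudocount of 0.1 (adjusted p = 0.0576) and with no filter (0.191), and 7 of 9 alternatives kept it, with an adjusted p of 0.0104 at the lowest. The difference was -0.54 (SE 0.34, adjusted p = 0.354). The other family members were scarcer. Ago3 held 1.88 and 2.21 FPKM in tet-LIN28B IPs, against 3.93 and 2.27 FPKM in their inputs. In the control, Ago3 was at 1.68 FPKM in the IP, against 2.96 FPKM in the input. Ago4, at 1.94 and 1.42 FPKM in tet-LIN28B IPs, against 0.56 and 0.42 FPKM in their inputs, fell short of the input filter. Its control values were 1.27 FPKM in the IP, against 1.12 FPKM in the input. Unlike for Ago1 and Ago2, the control IP of both genes was below both tet-LIN28B IPs. Only 1.69% of the 50-base windows of Ago1 occur in Ago3.

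Dis3l2 (chr1:86703808-87050095, plus strand), the exonuclease that degrades uridylated pre-let-7, was at 3.33 and 3.55 FPKM in tet-LIN28B IPs, against 3.99 and 4.32 FPKM in their inputs, and at 5.20 FPKM in the control IP, against 4.18 FPKM in the control input. The IP was below the input in both tet-LIN28B mice and above it in the control. Neither the log2 ratio of -0.22 (SE 0.20, adjusted p = 0.419) nor the difference of -0.47 (SE 0.35, adjusted p = 0.413) passed. The median log2 difference over the 8 factors was -0.46, against -0.39 over all genes.

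**Figure D2:**
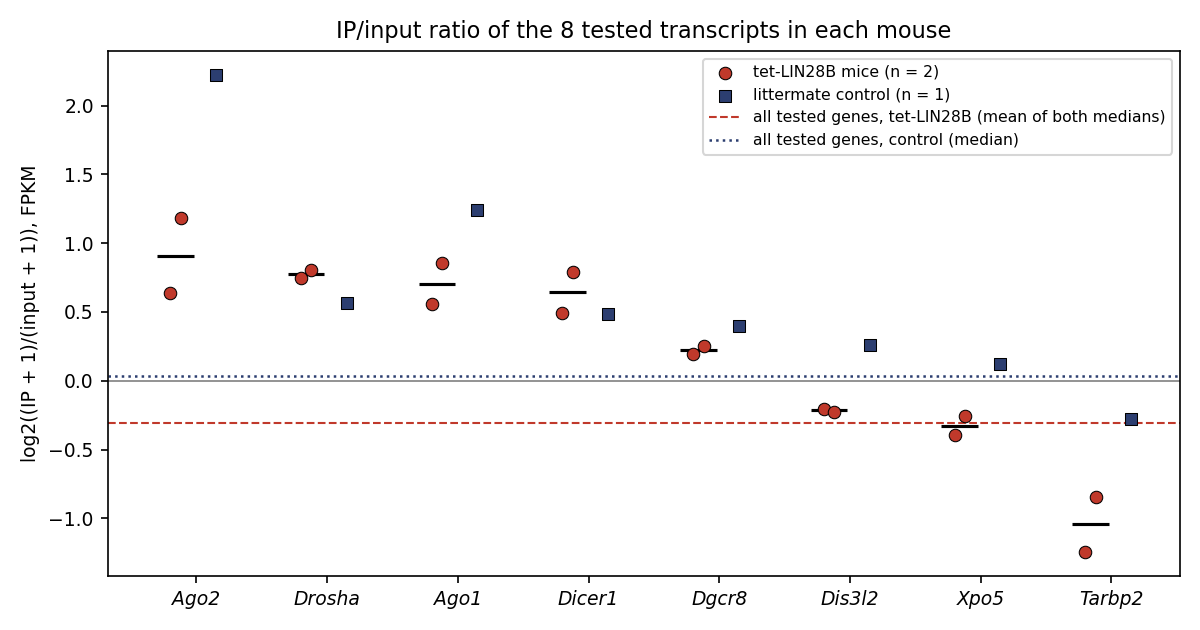
log2((IP + 1)/(input + 1)) of the 8 tested transcripts, with circles for the 2 tet-LIN28B mice (black line, their mean), squares for the control, and dashed and dotted lines at the median of all tested genes. The control square lies above both circles for Ago2 (2.22 against 0.64 and 1.18) and 5 other genes, and below both for Drosha (0.57) and, narrowly, for Dicer1 (0.48).

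The transcripts differ widely in length, and length moved with the ratio. Of the 8 tested, Tarbp2 has the shortest longest coding transcript in GENCODE M21, 1523 nt (17.4 percentile of 10297 genes), and Ago2 the longest, 13800 nt (99.6 percentile), of which 11064 nt are 3′ untranslated. Dicer1 measures 9851 nt and Ago1 7227 nt. Across those 10297 genes, Spearman's rho between length and log2 ratio was 0.368 in tet-LIN28B mice, 0.426 in the control and 0.176 for their difference. For the percentage of G and C in the transcript, rho was -0.232 in tet-LIN28B mice, 0.105 in the control and -0.328 for their difference, and Tarbp2 was at the 88.6 percentile of that percentage. These are descriptions across genes that share the same 6 libraries, and genes are not independent replicates. Genes under 1 kb had a median log2 ratio of -1.11 in tet-LIN28B mice, against -0.40 in the control, and genes of 8 kb or more had 0.22 in tet-LIN28B mice, against 0.43 in the control. The parts of length and of base composition in the ratios of the 8 factors were not tested.

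**Figure D3:**
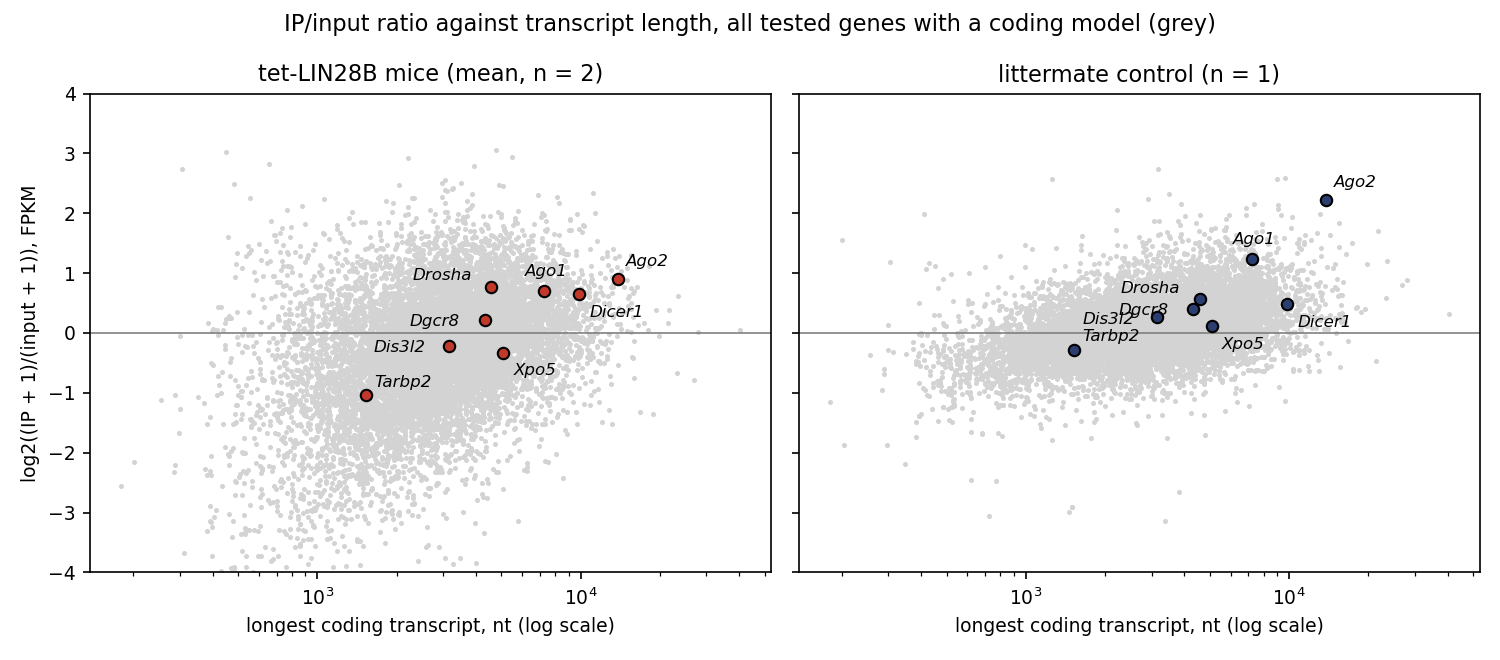
log2((IP + 1)/(input + 1)) against the length of the longest coding transcript (log axis), for tet-LIN28B mice (left, mean of 2) and the control (right), with the 10297 tested genes that have a coding model in grey. In both panels Tarbp2 (1523 nt) is the lowest of the 8 named genes and Ago2 (13800 nt) the highest; 33 genes on the left and 2 on the right lie outside the axis limit of 4.

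GGAGA, a form of the LIN28 mRNA motif that contains GGAG, was counted on the transcript strand. Examples from the coding sequences of 3 mRNAs higher in the IP and of Tarbp2, which was lower, are printed to show that the letters occur on either side (GENCODE M21 models, GRCm38, capitals mark GGAGA).

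Drosha, chr15:12834566-12834595, plus strand: gcagccctgaaaGGAGAagacctgagagcc
Dicer1, chr12:104730190-104730219, minus strand: gatctcaaggttGGAGAgtactcagaccta
Ago2, chr15:73146464-73146493, minus strand: tcggcaccaccgGGAGAacaatcaaactac
Tarbp2, chr15:102521724-102521753, plus strand: gagccctcccatGGAGAtgcagccccctgt

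The coding sequences of these 4 hold 14, 12, 9 and 2 copies, in the order printed. Per kilobase of the longest coding transcript, the density was 3.06 for Drosha, 2.76 for Xpo5, 2.55 for Dgcr8, 1.83 for Dicer1, 1.59 for Dis3l2, 1.52 for Ago1, 1.45 for Ago2 and 1.31 for Tarbp2. The median was 1.94 over the 10297 tested genes with a coding model. Of those genes, 96.7% hold at least 1 copy. Drosha, with the densest GGAGA, was higher in the IP, but Xpo5 and Dgcr8, next in density, were not called, and Ago2 and Ago1 lay under the median. Across genes, Spearman's rho between density and ratio was 0.0414 in tet-LIN28B mice, against 0.0271 in the control. A match is a description of the letters only.

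Partners of these factors were then examined as lists. The lists were chosen with earlier results of these data known, so their counts and medians are descriptions only. Of 16 nuclear processing cofactors, 8 were higher and 2 lower in the tet-LIN28B IP, where 13.9% and 31% of all genes were. The median log2 ratio was 0.62, against 0.01 in the control and -0.32 over all genes in tet-LIN28B mice. The extremes were Hnrnpa2b1, an RNA-binding protein that reads methylated primary transcripts, at 1.64 (adjusted p = 0.0129) and Mettl14, a subunit of the adenosine methyltransferase, at -0.68 (adjusted p = 0.0392). On the log2 ratio scale Hnrnpa2b1 stood at 2.14 and 1.15 in tet-LIN28B mice, against -0.05 in the control, a difference of 1.69 (SE 0.49, adjusted p = 0.109). None of the 16 differed from the control after adjustment. At an unadjusted p under 0.05, 6 were higher and none lower, where 6.4% of all genes were higher and 23.3% lower (805 and 2925 genes). The median difference was 0.34, where that of the 8 factors was -0.46.

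Among 17 tested Dicer and RISC partners of 19 listed, 6 were higher and 3 lower in the IP, where 13.9% and 31% of all genes were. Their median was 0.25 in tet-LIN28B mice, against 0.48 in the control. Ddx6, a helicase of mRNA repression, was highest at 1.63 (adjusted p = 0.00468), and Gemin4, found in complexes with Argonaute, lowest at -1.50 (adjusted p = 0.0139). None differed from the control after adjustment, and the 1 higher and 3 lower at an unadjusted p under 0.05 stand beside the 6.4% and 23.3% of all genes. Tnrc6b, a scaffold that binds Argonaute, was singled out after its values were seen because its groups lie in the order of Ago2. Its log2 ratio was -0.01 and 0.35 in tet-LIN28B mice, against 1.5 in the control, a difference of -1.33 (SE 0.35, adjusted p = 0.0936). The like-named genes of the list differed less. The difference was 0.02 for Tnrc6a (SE 0.28, adjusted p = 0.969) and -0.35 for Tnrc6c (SE 0.32, adjusted p = 0.499).

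The 29 tailing and turnover factors centred near the input, with a median of -0.12 in tet-LIN28B mice, against 0.06 in the control. In the tet-LIN28B IP 4 were higher and 3 lower, where 13.9% and 31% of all genes were. Xrn1, the cytoplasmic 5′ exonuclease, was highest at 1.79 (adjusted p = 0.0109). Exosc4, a core subunit of the RNA exosome, was lowest at -1.81 (adjusted p = 0.00389), and its difference of -1.93 from the control (SE 0.29, adjusted p = 0.0517) was the nearest to the threshold among all listed genes. None of the 29 passed against the control. At an unadjusted p under 0.05, 3 were higher and 2 lower, where 6.4% and 23.3% of all genes were. Tut4 and Tut7, the uridylyltransferases that tail pre-let-7, are named here for their role, after their values were seen. Tut4 was at -0.01 and Tut7 at 0.51 (adjusted p = 0.107).

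Of 18 deadenylation and decapping effectors, 3 were higher and 3 lower in the tet-LIN28B IP, where 13.9% and 31% of all genes were. Their median was -0.10 in tet-LIN28B mice, against 0.14 in the control. Cnot6, a deadenylase, stood at 1.15 (adjusted p = 0.00775) in tet-LIN28B mice, against 1.09 in the control, and Pan2, of another deadenylase complex, at -1.20 (adjusted p = 0.0128) in tet-LIN28B mice, against -0.03 in the control. None differed after adjustment, and 3 were lower and none higher at an unadjusted p under 0.05, where 23.3% of all genes were lower. Only 4 of 19 listed microRNA hosts and hairpins could be tested. In the tet-LIN28B IP 1 of them was higher and 0 lower, where 13.9% and 31% of all genes were. Mir17hg, host of a microRNA cluster needed in B cell precursors, was the 1 called, at 0.94 (adjusted p = 0.0349). It held 22.02 and 10.48 FPKM in tet-LIN28B IPs, against 8.55 and 6.55 FPKM in their inputs, and 3.46 FPKM in the control IP, against 4.72 FPKM in the control input. The IP was above the input in both tet-LIN28B mice and below it in the control, but the difference of 1.30 (SE 0.42, adjusted p = 0.129) did not pass. Mir142hg, the lowest, was at -0.65 (adjusted p = 0.117), but at -0.16 and -1.13 in the single tet-LIN28B mice, and it was called under the 50 FPKM filter (adjusted p = 0.000407, range over alternatives 0.000407 to 0.484). At inputs, none of the genes of these 5 lists was called, where 0% of all genes were. At an unadjusted p under 0.05, 1 (a deadenylation and decapping effector) was higher, where 2.22% of all genes were higher and 3.19% lower.

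**Figure D4:**
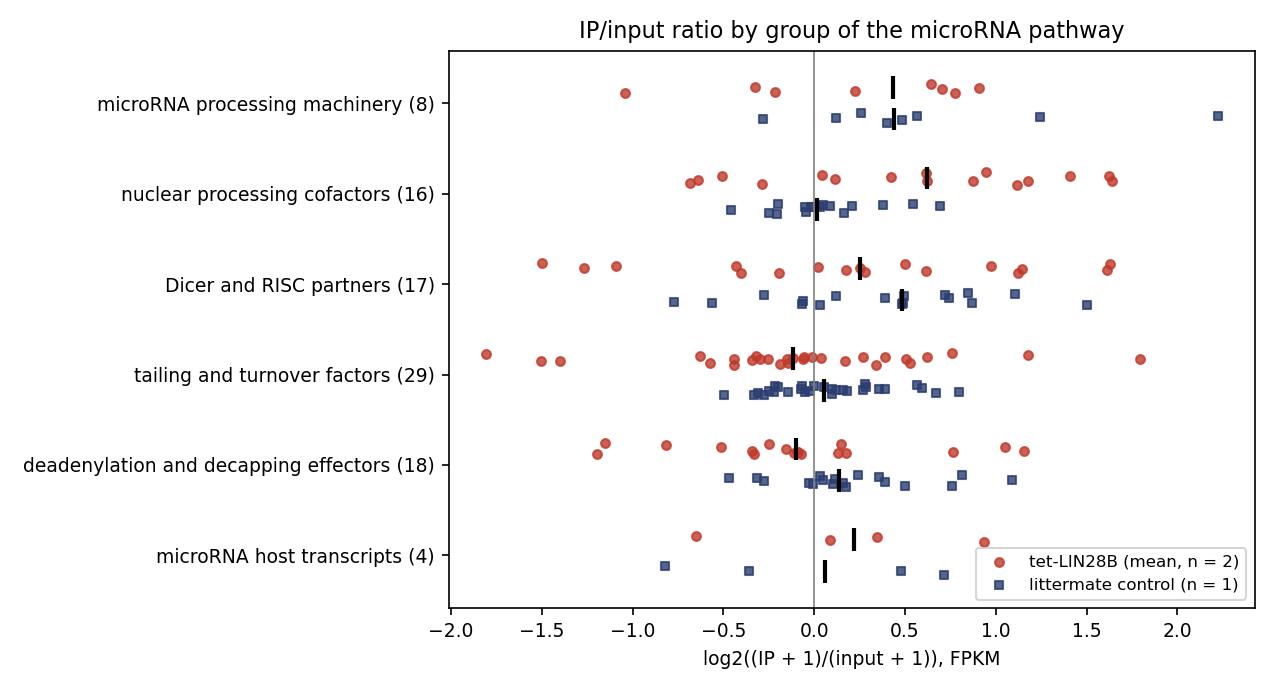
log2((IP + 1)/(input + 1)) by group of the microRNA pathway, 1 point per tested gene, circles for the mean of the 2 tet-LIN28B mice above squares for the control, with a black bar at each median and the number of genes in parentheses. The bars of the 8 processing factors nearly coincide (0.43 in tet-LIN28B mice, 0.44 in the control), while those of the nuclear cofactors lie at 0.62 in tet-LIN28B mice, against 0.01 in the control.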

How the data were processed

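The authors sequenced SMART-Seq v4 and Nextera XT libraries in pairs, used STAR 2.7.1 for alignment to mm10 and RSEM 1.28 for quantification, and deposited FPKM. The sources used here do not give the annotation release. Groups come from sample titles and column names. The last line of each sample's description names the opposite fraction and was not followed. The titles number the tet-LIN28B samples as biological replicates and were followed, although the study's text once calls them technical replicates. Under either reading p-values measure only the spread between these samples.

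Values were read with Python 3.11.15, pandas 2.3.3 and R 4.3.3. The 12576 genes whose inputs averaged 1 FPKM or more were kept, because the study's filter (50 FPKM in the 4 tet-LIN28B libraries) keeps 1460 genes and none of the 10. log2((IP + 1)/(input + 1)) per mouse was fitted with limma 3.58.1 (trend) with Benjamini-Hochberg adjustment over all genes and a threshold of 0.05. This gave a test of tet-LIN28B ratios against 0 and one against the control. Inputs were fitted on log2(FPKM + 1). A pseudocount of 1 understates changes of low genes. IP and input come from the same mouse, and differences between the tet-LIN28B mice in IP and input correlated at 0.132. Data were also simulated with 200 of 12576 genes changed by 1 on the log2 scale. There 84.5% were recovered for IP against input, 21.5% for the difference from the control and 86.5% for the inputs. The simulated noise had the spread fitted for each gene's level, without the further scatter of spread between genes in the real data. These shares are therefore not the power of the real tests, and an empty comparison does not show equal levels.

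Depth, estimated from the FPKM steps of genes with 1 transcript, was about 14600000 and 17400000 fragments in tet-LIN28B IPs, 19000000 and 18000000 in their inputs, 14100000 in the control IP and 21300000 in the control input. Between 83.6% and 88.1% of low values lay within 0.15 of a whole number of fragments (30% by chance). No pair of the 15 library pairs held identical values. Between log2 libraries, the control IP correlated at 0.871 and 0.906 with the tet-LIN28B IPs and at 0.951 with its own input, while the tet-LIN28B IPs correlated at 0.970 with each other.

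The genes and lists were chosen with earlier results of these data known. Named genes are the 10, the highest and lowest by tet-LIN28B ratio of each list and the 3 most like Lin28b. Ago3, Ago4, Trmt2a, Chrac1, Gm18584, Tnrc6a, Tnrc6b, Tnrc6c, Tut4 and Tut7 were chosen after values were seen. Motifs and lengths used GENCODE M21, and RefSeq GRCm38.p6 gave the hairpins. Alternatives varied the filter, pseudocount, scaling, variance trend, replicate block and mice included.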

Additional observations from a re-analysis of the deposited data

Results flagged for a closer look

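The IP/input ratio differed between tet-LIN28B mice and the control, by limma's test of the difference itself, for 48 genes that were higher and 318 genes that were lower in tet-LIN28B mice. None of the 10 genes is among them. Ago2 came nearest of the 8 tested, at a log2 difference of -1.32 (adjusted p = 0.111). Groups held at most 2 samples, so no group was large enough to look for a single outlying sample.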

How the results depend on the processing

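The number of the 8 factors higher in the tet-LIN28B IP was 4 with TPM scaling, centring or values above 0 in all 6 libraries. It was 3 with no replicate block (Ago2, adjusted p = 0.0694), no variance trend (Dicer1, 0.0590) or a pseudocount of 0.5 (Dicer1, 0.0501), 2 with a pseudocount of 0.1 (Ago1, 0.0576, and Dicer1, 0.0563, lost) and 0 with no filter. When inputs had to average 5 FPKM, it was 2 of 5 tested, since Drosha, Ago2 and Dis3l2 drop out there, and Ago1 and Dicer1 passed. Leaving out the control cannot change this test. Over its alternatives the adjusted p of Ago2 ran between 0.00838 and 0.226. Tarbp2 was lower under each setting that tested it except no filter, where the count is 0. No setting called a factor in the other comparisons. Over all genes, no filter called 0 genes in IP against input and in the difference. The filter of 50 FPKM, which leaves none of the 10, called 522 higher and 512 lower for IP, 339 higher for the difference, and 5 higher and 3 lower for inputs. A mean input of 5 FPKM gave 224 higher and 1038 lower for the difference and 8 higher for inputs, values above 0 gave 313, 1446 and 4, and TPM gave 92, 668 and 4. Centring gave 2908 higher for IP, 188 lower for the difference, and 18 higher and 14 lower for inputs. The difference called 0 genes with pseudocounts of 0.1 and 0.5, no trend or no replicate block. Signs turned for the input of Dis3l2 (0.026 with TPM, 0.0012 centred), the difference of Cnot6 (-0.10 with TPM), the ratio of Dis3l2 (0.089 centred) and the difference of Dgcr8 (0.17 centred). With 1 tet-LIN28B mouse left out, signs also turned for the inputs of Ago1 (0.02), Xpo5 (-0.03), Dis3l2 (0.04), Gemin4 (0.19), Xrn1 (-0.18), Mettl14 (-0.16) and Exosc4 (0.07) and the differences of Mir142hg (-0.31) and Cnot6 (-0.0055), none of them called. Among other named genes, Exosc4 passed against the control with a mean input of 5 FPKM (adjusted p = 0.0228), values above 0 (0.0135) and TPM (0.0405; range over alternatives 0.0135 to 0.105), Hnrnpa2b1 under the filter of 50 FPKM (4.2e-05; range up to 0.334), Mir142hg passed against input under that filter (0.000407), and Mettl14 lost its call under 5 settings and Mir17hg under 3. Leaving out a tet-LIN28B mouse leaves no residual degree of freedom, so only values result: 0.64 and 1.18 for the Ago2 ratio, and -1.59 and -1.04 for its difference. The control has no replicate.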
